A study of Mus musculus with 36 samples.

Results

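The eIF2 alpha phosphatase subunits GADD34 and CReP are encoded by the mouse genes Ppp1r15a and Ppp1r15b. Both were picked by name from the deposited read count table, where each stands on 1 entry, which makes 2 of the 36856 gene symbols measured. The table holds bulk RNA sequencing of 36 libraries from mouse embryonic fibroblasts (MEF), fibroblasts grown from mouse embryos, with 3 libraries in each of 12 groups. The cells were either WT or PERK -/-, and cells of each genotype received DMSO as the solvent control, BtdCPU, halofuginone, thapsigargin (Tg), or Tg together with either compound. The labels give no dose, time, passage or batch, do not say whether a genotype is 1 clone or several, and do not say whether the replicates came from separate cultures. The p-values therefore measure only the spread between these libraries, which may be technical.

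When a cell is stressed, kinases phosphorylate the translation factor eIF2 alpha, which slows protein synthesis and favours the translation of ATF4, the transcription factor at the centre of the integrated stress response. GADD34 and CReP each bind protein phosphatase 1 (PP1) and bring it to phosphorylated eIF2 alpha, so that the phosphate is removed and translation resumes. CReP is known as the constitutive subunit and GADD34 as the subunit made under stress, a target of ATF4 and of the ATF4-induced factor CHOP (gene Ddit3), and the mRNAs of both carry upstream open reading frames. PERK is the eIF2 alpha kinase of the endoplasmic reticulum (ER). Thapsigargin empties ER calcium by inhibiting the SERCA pump. BtdCPU is known as an activator of the kinase HRI, and halofuginone activates the kinase GCN2 by blocking prolyl-tRNA synthetase.

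In the GENCODE annotation of GRCm38, Ppp1r15a (ENSMUSG00000040435.12) lies on chromosome 7 from 45522916 to 45526268 on the minus strand, with 3 transcripts. Ppp1r15b (ENSMUSG00000046062.5) lies on chromosome 1 from 133131143 to 133139783 on the plus strand, with 2 transcripts. The submitters' processing notes name the build GRCm39, so these positions describe the genes and were not used to count reads. The 250 bases before the annotated start of Ppp1r15a are shown because this gene moved the most of the pair and a cAMP response element, the palindrome that factors of the ATF and CREB families recognise, lies directly before its start. The stretch is chr7:45526269-45526518 of GRCm38.p6, from RefSeq, written 5′ to 3′ on the minus strand, with the element in capitals.
Ppp1r15a: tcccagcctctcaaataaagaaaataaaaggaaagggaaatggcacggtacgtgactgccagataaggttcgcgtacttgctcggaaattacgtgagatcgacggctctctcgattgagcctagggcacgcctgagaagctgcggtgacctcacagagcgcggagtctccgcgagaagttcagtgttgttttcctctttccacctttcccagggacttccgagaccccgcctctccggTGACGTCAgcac
The first base of the capitals is 12 bases before the start. TGACGTCA, searched on both strands, occurs in 1.79% of the 32851 RefSeq promoter windows, which each also hold the first bases of the transcript. Of the other motifs searched on both strands, the C/EBP-ATF element TGATGNAA (in 3.97% of windows), the ER stress element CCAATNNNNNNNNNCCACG (0.119%) and TGACGTGG (0.676%) had no match in the window of Ppp1r15a. TATAAA, searched on the gene strand and found in 8.32% of windows, begins 16 bases after the annotated start, beyond the stretch shown. A match describes letters only and is no measure of binding. The promoter of Ppp1r15b is not shown.

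Libraries held between 32454257 and 37178107 counts. Levels are given as CPM, the counts relative to the scaled size of the library, which compares 1 gene between libraries. Ppp1r15a had between 525 and 16860 counts in a library and Ppp1r15b between 1742 and 7617, so neither came near the floor of 3 counts that a count of 0 allows. Eif2ak3, the gene of PERK, was lower in every PERK -/- library than in any WT library of the same treatment, in all 6 treatments. All 8 fibroblast markers were above 24 CPM in every library. The summed epithelial markers (Epcam, Cdh1, Krt8, Krt18) reached 23.5 CPM, and blood, endothelial and pluripotency markers stayed lower, with Cd3e at 0 throughout. On the opposite strand, Tulp2 overlaps the last 717 bases of Ppp1r15a, and Gm26616 overlaps 640 bases of Ppp1r15b. The libraries are strand-specific per the labels, but whether counting used strand is not given in the sources used here. Tulp2 had group means of at most 0.242 CPM. Plekha4, which starts 62 bases from Ppp1r15a in the other direction, had group means between 0.824 and 2.46 CPM.

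WT BtdCPU replicate 2 stood apart from the other libraries of its group. It had 69.4 CPM of Ppp1r15a against 231 and 193 CPM, 70.9 CPM of Ddit3 against 156 and 133 CPM, and 13.0 CPM of Atf3 against 33.6 and 32.1 CPM. Values without it, an alternative chosen after seeing the data, are given beside the results whose call, count or order changed with it.

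Ppp1r15a was the mobile member of the pair, with group means that spanned 25.0-fold, against 4.50-fold for Ppp1r15b. In WT cells with DMSO, Ppp1r15a had 19.6, 14.8 and 16.8 CPM (17.1 ± 2.45, SD, n = 3), the lowest mean of the 12 groups. PERK -/- cells with DMSO had 30.7, 35.9 and 32.3 CPM (32.9 ± 2.66, SD, n = 3) and stood above all 3 WT libraries. The highest mean, 426 ± 26.3 CPM (SD, n = 3), belonged to PERK -/- cells with BtdCPU and Tg, at 417, 406 and 456 CPM. In the order of means, WT DMSO, PERK -/- DMSO and PERK -/- Tg at the bottom were separated from each other and from the group above without overlap. PERK -/- BtdCPU and WT BtdCPU overlapped, but without WT BtdCPU replicate 2 the lowest WT library, at 193 CPM, lay above the highest PERK -/- library, at 144 CPM. From WT halofuginone at 324 CPM up to PERK -/- BtdCPU with Tg, every group overlapped its neighbour in the order. PERK -/- BtdCPU with Tg overlapped PERK -/- halofuginone with Tg, and stood above every library of the other 4 groups in that range.

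**Figure D1:**
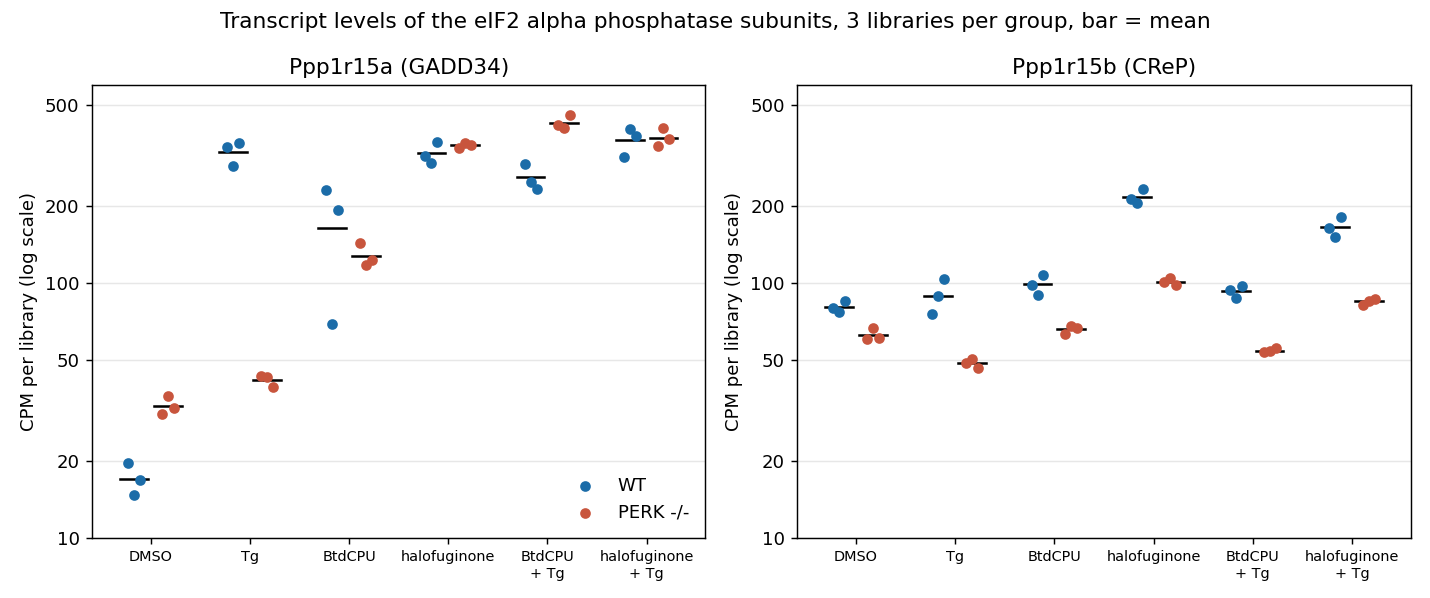
CPM of Ppp1r15a (left) and Ppp1r15b (right) in each of the 36 libraries by treatment, on a log axis, with WT in blue, PERK -/- in red and bars for the mean of 3 libraries. Ppp1r15a of PERK -/- cells stays near its DMSO level with Tg alone (41.6 CPM) and is high in both combinations, while Ppp1r15b of PERK -/- cells lies below WT in every treatment.

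With Tg, Ppp1r15a rose strongly in WT cells, and in PERK -/- cells its change did not pass the test. WT cells with Tg had 344, 288 and 354 CPM, a 19.2-fold rise over DMSO (log2 fold change 4.27, SE 0.24, edgeR adjusted p = 3.59e-15). In that comparison 47.6% of the 16065 tested genes were called, and 1.86% had a higher log2 fold change than Ppp1r15a. PERK -/- cells with Tg had 43.1, 42.7 and 39.1 CPM. These lay above the 3 PERK -/- DMSO libraries, yet the log2 fold change of 0.34 (SE 0.21, 95% interval -0.10 to 0.78) was not called, at an edgeR adjusted p of 0.262, where 27.9% of genes were. That call depended on the shared spread: with the compared groups alone the change was 0.30 with an edgeR adjusted p of 0.0189, and with WT BtdCPU replicate 2 out of the fit it was 0.34 with an edgeR adjusted p of 0.0268. The difference between the genotypes in the response to Tg was itself tested and was -3.93 (SE 0.31, log2, edgeR adjusted p = 3.6e-11), in a comparison that called 38.1% of genes.

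Each compound alone raised Ppp1r15a in both genotypes. BtdCPU gave 231, 69.4 and 193 CPM in WT cells, which spread widely but all lay above DMSO, and the rise was 9.65-fold (log2 3.27, SE 0.23, edgeR adjusted p = 4.74e-12). Without replicate 2 it was 3.64 on the log2 scale. The same compound gave 144, 117 and 123 CPM in PERK -/- cells, a 3.90-fold rise (log2 1.96, SE 0.22, edgeR adjusted p = 3.63e-07). BtdCPU called 22.2% of genes in WT and 3.59% in PERK -/- cells, so in PERK -/- cells Ppp1r15a was among a small set of called genes. The size of that set, 577 genes, depended on the setting. It was 881 by DESeq2, 1265 with the compared groups alone, 1577 with a replicate block and 326 without PERK -/- BtdCPU replicate 1. The response in PERK -/- cells minus that in WT cells was -1.31 (SE 0.30, log2) and was not called, at an edgeR adjusted p of 0.0622, in a comparison that called 0.199% of genes. Without WT BtdCPU replicate 2 it was -1.67 and called (edgeR adjusted p = 1.23e-07), and it was also called without the low-count filter, with a replicate block and by DESeq2.

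Halofuginone gave 317, 296 and 360 CPM of Ppp1r15a in WT cells, which overlap the WT Tg libraries, and a 19.0-fold rise (log2 4.25, SE 0.24, edgeR adjusted p = 1.05e-15). It gave 340, 354 and 348 CPM in PERK -/- cells, the group with the smallest spread relative to its mean, and a 10.5-fold rise (log2 3.40, SE 0.23, edgeR adjusted p = 7.11e-13). Halofuginone called 68.2% of genes in WT and 42.2% in PERK -/- cells. The levels reached overlapped between the genotypes, while PERK -/- cells started from the higher DMSO level. The difference of responses was -0.85 (SE 0.30, log2, edgeR adjusted p = 0.029, 35% of genes called), and the call was lost when any of 8 of the 12 libraries was left out, with values between -0.81 and -0.73: DMSO replicate 2 and halofuginone replicates 1 and 3 of WT, and DMSO replicates 2 and 3 and all 3 halofuginone replicates of PERK -/-.

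**Figure D2:**
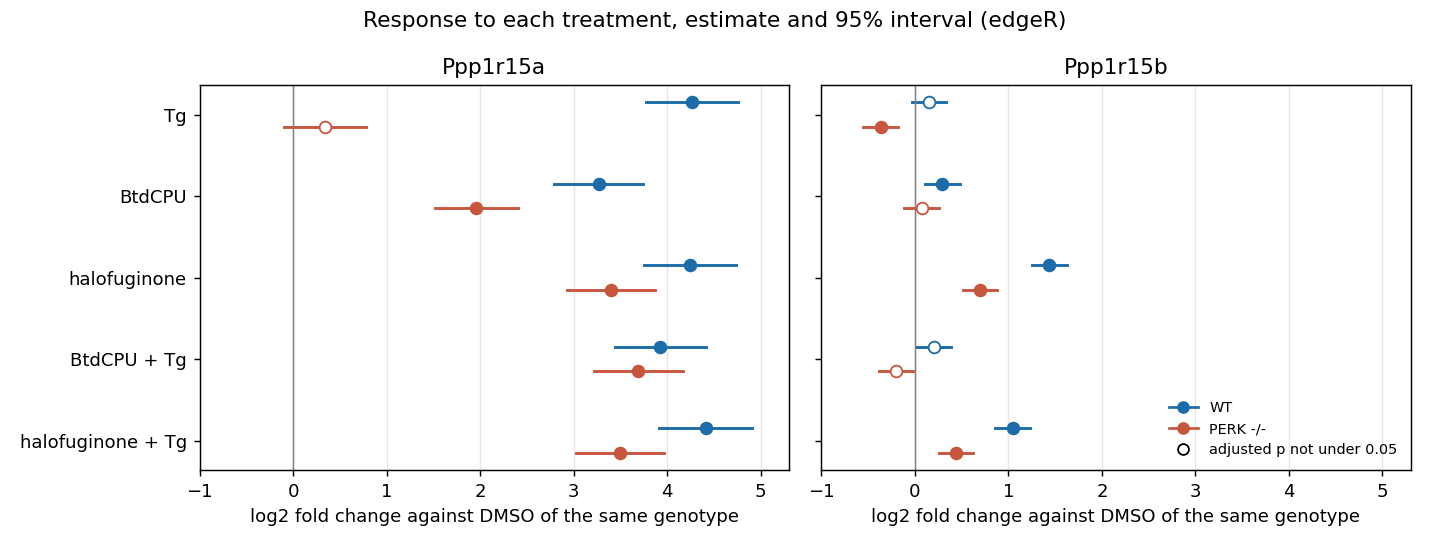
Log2 fold change against DMSO of the same genotype for Ppp1r15a (left) and Ppp1r15b (right) under each treatment, points for the estimate and lines for its 95% interval, open points where the edgeR adjusted p was not under 0.05. For Ppp1r15a the PERK -/- point lies far from the WT point with Tg (0.34 against 4.27) and close to it with BtdCPU and Tg (3.69 against 3.93).

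Against DMSO, BtdCPU with Tg raised Ppp1r15a 15.2-fold in WT and 12.9-fold in PERK -/- cells (log2 3.93 and 3.69, edgeR adjusted p = 2.77e-14 and 1.59e-13), in comparisons that called 52.6% and 31.4% of genes. Halofuginone with Tg raised it 21.3-fold and 11.3-fold (log2 4.41 and 3.50, edgeR adjusted p = 6.79e-16 and 2.87e-13), in comparisons that called 65.7% and 45.1% of genes. With Tg added, all 4 treated groups thus stood at least 11.3-fold above DMSO of their genotype.

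Adding a compound to Tg moved Ppp1r15a in PERK -/- cells and made no difference past the test in WT cells. PERK -/- cells with BtdCPU and Tg, at 417, 406 and 456 CPM, stood 10.2-fold above Tg alone (log2 3.35, SE 0.23, edgeR adjusted p = 2.71e-12). In that comparison 35.6% of genes were called and 0.529% had a higher log2 fold change than Ppp1r15a. PERK -/- cells with halofuginone and Tg had 344, 407 and 367 CPM, 8.94-fold above Tg alone (log2 3.16, SE 0.23, edgeR adjusted p = 7.16e-13, 52.7% of genes called).

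WT cells with BtdCPU and Tg had 295, 250 and 235 CPM, which overlap the 3 WT Tg libraries. Their log2 difference from Tg was -0.34 (95% interval -0.76 to 0.09, edgeR adjusted p = 0.429), in a comparison that called 2.32% of genes (372), or 12.9% (2079) with a replicate block. WT cells with halofuginone and Tg had 313, 401 and 377 CPM, 0.15 from Tg on the log2 scale (95% interval -0.28 to 0.57, edgeR adjusted p = 0.599, 45.3% of genes called). The addition was therefore larger in PERK -/- than in WT cells, by 3.69 for BtdCPU (SE 0.31, log2, edgeR adjusted p = 4.85e-10, 20.8% of genes called) and by 3.01 for halofuginone (SE 0.30, log2, edgeR adjusted p = 6.51e-09, 32.7% of genes called).

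Read the other way, adding Tg to a compound raised Ppp1r15a in PERK -/- cells only with BtdCPU among the 2 compounds, by 3.32-fold (log2 1.73, SE 0.22, edgeR adjusted p = 3.99e-07, 16.8% of genes called). With halofuginone the Ppp1r15a libraries with and without Tg overlapped, and the log2 difference was 0.10 in PERK -/- (95% interval -0.33 to 0.53, edgeR adjusted p = 0.902, 6.43% of genes called) and 0.17 in WT cells (95% interval -0.26 to 0.59, edgeR adjusted p = 0.674, 14% of genes called, or 24.5% with a replicate block). In WT cells Tg added to BtdCPU gave a rise of 0.66 (SE 0.21, log2, edgeR adjusted p = 0.0126, 40.4% of genes called). This call was lost without WT BtdCPU replicate 2 (0.29, edgeR adjusted p = 0.0722), without WT BtdCPU with Tg replicate 1 (0.52, edgeR adjusted p = 0.0809) and with the compared groups alone (0.68, edgeR adjusted p = 0.168).

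For BtdCPU, the combined response of Ppp1r15a departed from the sum of the single log2 responses in opposite directions in the 2 genotypes. For PERK -/- cells, Tg (0.34) and BtdCPU (1.96) summed to 2.30, and the combination gave 3.69, which is 1.39 above the sum (SE 0.30, log2, edgeR adjusted p = 0.00345, 7.39% of genes called). In WT cells the combination lay below the sum by a difference of -3.61 with BtdCPU (SE 0.31, log2, edgeR adjusted p = 8.74e-10, 8.73% of genes called). That difference was -3.97 without WT BtdCPU replicate 2. With halofuginone the WT difference was -4.10 (SE 0.31, log2, edgeR adjusted p = 3.08e-11, 31.4% of genes called). For halofuginone in PERK -/- cells the departure was -0.24 (95% interval -0.85 to 0.37, edgeR adjusted p = 0.761, 6.49% of genes called).

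**Figure D3:**
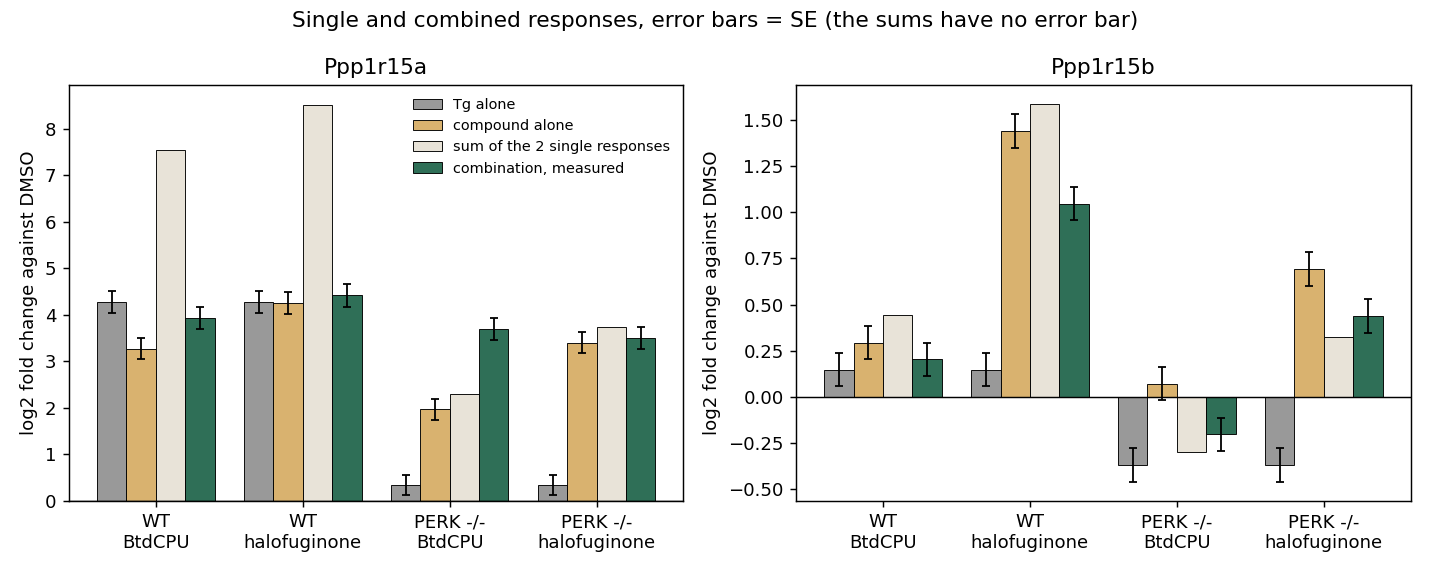
Log2 fold changes against DMSO for Tg alone, the compound alone, the sum of these values and the measured combination, for Ppp1r15a (left) and Ppp1r15b (right), with SE bars on the measured values. The measured bar of Ppp1r15a stands above the sum in PERK -/- cells with BtdCPU (3.69 against 2.30) and far below it in both WT panels.

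The 2 compounds, whose doses the labels do not give, differed in what they did to Ppp1r15a when given alone. Halofuginone exceeded BtdCPU by 0.98 in WT cells (SE 0.21, log2, edgeR adjusted p = 0.000174, 64.4% of genes called; 0.61 without WT BtdCPU replicate 2) and by 1.44 in PERK -/- cells (SE 0.21, log2, edgeR adjusted p = 3.55e-06, 36.1% of genes called). Under Tg the difference was 0.48 in WT cells (95% interval 0.06 to 0.91, edgeR adjusted p = 0.0746, 33.5% of genes called). This became a call with the compared groups alone (0.47, edgeR adjusted p = 0.0272), without the low-count filter (0.46, edgeR adjusted p = 0.000919) and with WT BtdCPU replicate 2 out of the fit (0.48, edgeR adjusted p = 0.00109). The value for PERK -/- cells under Tg was -0.19 (95% interval -0.62 to 0.23, edgeR adjusted p = 0.505, 36.6% of genes called).

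Between the genotypes at the same treatment, Ppp1r15a was higher in PERK -/- than in WT cells with DMSO, by 0.95 (SE 0.22, log2, edgeR adjusted p = 0.000581, 49.5% of genes called), and with BtdCPU and Tg, by 0.71 (SE 0.21, log2, edgeR adjusted p = 0.00433, 60.3% of genes called). With Tg alone it was 7.89-fold lower in PERK -/- cells, a log2 difference of -2.98 (SE 0.23, edgeR adjusted p = 7.51e-13, 65.6% of genes called). With halofuginone, alone (log2 difference 0.10, 65.9% of genes called) or with Tg (0.03, 62.1% of genes called), the libraries overlapped and Ppp1r15a was not called (edgeR adjusted p = 0.685 and 0.896). With BtdCPU the difference was -0.36 and not called (edgeR adjusted p = 0.153, 53% of genes called), but without WT BtdCPU replicate 2 it was -0.73 and called (edgeR adjusted p = 1.25e-05). For the combinations against DMSO, the response of PERK -/- minus that of WT cells was -0.24 with BtdCPU and Tg (95% interval -0.85 to 0.38, edgeR adjusted p = 0.623, 24.6% of genes called) and -0.91 with halofuginone and Tg (SE 0.30, edgeR adjusted p = 0.0228, 28.5% of genes called). The second call was lost without DMSO replicate 2 of WT (-0.82), DMSO replicate 2 of PERK -/- (-0.85) or halofuginone with Tg replicate 1 of PERK -/- (-0.81).

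Ppp1r15b, the constitutive subunit, had 79.9, 76.9 and 85.0 CPM in WT DMSO (80.6 ± 4.07, SD, n = 3) and 60.3, 66.7 and 60.7 CPM in PERK -/- DMSO (62.5 ± 3.57, SD, n = 3). It was lower in PERK -/- than in WT cells in all 6 treatments, with no overlap of libraries in any of them. The log2 differences were -0.37 in DMSO (SE 0.09, edgeR adjusted p = 0.00115), -0.88 in Tg, -0.59 in BtdCPU, -1.11 in halofuginone, -0.77 in BtdCPU with Tg and -0.97 in halofuginone with Tg, the last 5 with edgeR adjusted p of 2.14e-06 or lower. The shares of all genes called in these comparisons are those given for Ppp1r15a, from 49.5% to 65.9%.

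Halofuginone was the treatment that raised Ppp1r15b in both genotypes, alone and with Tg. WT cells had 213, 206 and 235 CPM with halofuginone, a 2.71-fold rise (log2 1.44, SE 0.09, edgeR adjusted p = 1.3e-14), and 165, 152 and 182 CPM with halofuginone and Tg, a 2.07-fold rise (log2 1.05, SE 0.09, edgeR adjusted p = 1.58e-11, 65.7% of genes called). These were the 2 highest groups of Ppp1r15b, each clear of the group below it. PERK -/- cells had 101, 104 and 98.1 CPM with halofuginone (1.62-fold, log2 0.69, SE 0.09, edgeR adjusted p = 2.39e-07) and 82.4, 85.2 and 86.9 CPM with halofuginone and Tg (1.36-fold, log2 0.44, SE 0.09, edgeR adjusted p = 0.000171, 45.1% of genes called). The response in PERK -/- cells minus that in WT cells was -0.74 with halofuginone (SE 0.13, log2, edgeR adjusted p = 3.96e-05) and -0.61 with halofuginone and Tg (SE 0.13, log2, edgeR adjusted p = 0.000652). The summed epithelial markers moved with the same treatment in WT cells: they were between 0.114 and 0.337 CPM with DMSO, between 16.9 and 23.5 CPM with halofuginone and between 7.97 and 10.5 CPM with halofuginone and Tg. The PERK -/- values were between 1.39 and 1.96 CPM with DMSO and between 3.02 and 4.80 CPM with halofuginone. Over all libraries Krt8 reached 14.3 CPM and Krt18 8.62 CPM, while Cdh1 reached at most 1.08 CPM and Epcam at most 0.169 CPM. The part of these markers in the result was not tested.

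Tg lowered Ppp1r15b in PERK -/- cells. The libraries held 48.6, 50.3 and 46.5 CPM, the lowest group of the 12 and below every PERK -/- DMSO library, a fall of 0.37 on the log2 scale (log2 fold change -0.37, SE 0.09, edgeR adjusted p = 0.00243). WT cells with Tg had 75.4, 89.1 and 103 CPM, a spread that overlaps DMSO, and a log2 fold change of 0.15 (95% interval -0.04 to 0.33, edgeR adjusted p = 0.18), which was called only when WT Tg replicate 1 was left out (0.25, edgeR adjusted p = 0.0229). The responses differed by -0.52 (SE 0.13, log2, edgeR adjusted p = 0.00173). BtdCPU gave 98.6, 89.9 and 108 CPM in WT cells, a rise of 0.29 (SE 0.09, log2, edgeR adjusted p = 0.0173), and 63.3, 67.6 and 66.4 CPM in PERK -/- cells, a log2 fold change of 0.07 that was not called (edgeR adjusted p = 0.798). The WT call was lost when BtdCPU replicate 1 or 3 or DMSO replicate 1 or 2 was left out (0.23 to 0.30), with library size alone (0.22, edgeR adjusted p = 0.0608), without the low-count filter (0.29, edgeR adjusted p = 0.101) and with the compared groups alone (0.29, edgeR adjusted p = 0.131). The responses to BtdCPU differed by -0.22 (95% interval -0.48 to 0.04, edgeR adjusted p = 0.569).

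BtdCPU with Tg gave 93.8, 87.3 and 97.2 CPM of Ppp1r15b in WT cells (log2 fold change 0.20, edgeR adjusted p = 0.0581, 52.6% of genes called) and 53.6, 54.1 and 55.4 CPM in PERK -/- cells (-0.20, edgeR adjusted p = 0.0909, 31.4% of genes called). Neither was called, although no library overlapped DMSO of its genotype. Both were called with library size alone (0.24 and -0.23, edgeR adjusted p = 0.0158 and 0.0386) and with a replicate block (0.20 and -0.20, edgeR adjusted p = 0.00904 and 0.016). The PERK -/- change was also called by DESeq2 (-0.22, adjusted p = 0.0461) and with the compared groups alone (-0.21, edgeR adjusted p = 0.0383). The difference of these responses was -0.41 (SE 0.13, log2, edgeR adjusted p = 0.0192). That call was lost without the low-count filter (-0.35, edgeR adjusted p = 0.191) and when any of 8 of the 12 libraries was left out, with values between -0.37 and -0.33: DMSO replicate 2 and BtdCPU with Tg replicates 1 and 3 of WT, and DMSO replicates 2 and 3 and all 3 BtdCPU with Tg replicates of PERK -/-.

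Over Tg alone, halofuginone raised Ppp1r15b by 0.90 in WT and 0.81 in PERK -/- cells (SE 0.09 each, log2, edgeR adjusted p = 2.15e-09 and 7.34e-09), with no overlap of libraries. These additions differed between genotypes by -0.09 (95% interval -0.35 to 0.17, edgeR adjusted p = 0.633). BtdCPU over Tg gave 0.05 in WT (95% interval -0.13 to 0.24, edgeR adjusted p = 0.804) and 0.16 in PERK -/- cells (95% interval -0.02 to 0.35, edgeR adjusted p = 0.163), which differed by 0.11 (95% interval -0.15 to 0.37, edgeR adjusted p = 0.607). The PERK -/- value was called with the compared groups alone (0.20, edgeR adjusted p = 0.0383) and with a replicate block (0.17, edgeR adjusted p = 0.0448). Tg added to halofuginone lowered Ppp1r15b in WT cells (-0.39, SE 0.09, log2, edgeR adjusted p = 0.00249; -0.38 and not called with the compared groups alone, edgeR adjusted p = 0.0839). The same difference in PERK -/- cells was -0.25 (95% interval -0.44 to -0.07, edgeR adjusted p = 0.0958). It was called by DESeq2 (adjusted p = 0.0419) and with a replicate block (-0.25, edgeR adjusted p = 0.00773). Tg added to BtdCPU gave a fall in PERK -/- cells (-0.27, SE 0.09, log2, edgeR adjusted p = 0.0337), lost without the low-count filter (-0.28, edgeR adjusted p = 0.161) and when any compared library other than BtdCPU replicate 1 was left out (-0.28 to -0.25). In WT cells Tg added to BtdCPU gave -0.09 (95% interval -0.28 to 0.09, edgeR adjusted p = 0.438).

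Of the 2 compounds, halofuginone gave the higher level of Ppp1r15b in each of the 4 comparisons. It exceeded BtdCPU by 1.14 in WT cells alone and 0.84 under Tg, and by 0.62 in PERK -/- cells alone and 0.64 under Tg (SE 0.09 each, log2, edgeR adjusted p of 2.6e-06 or lower in all 4). Alone and under Tg, these comparisons called 64.4% and 33.5% of all tested genes in WT and 36.1% and 36.6% in PERK -/- cells. Of the 4 departures from additivity, the WT halofuginone combination was called, at -0.54 (SE 0.13, log2, edgeR adjusted p = 0.0015, 31.4% of genes called). The other 3 were between -0.24 and 0.11 and not called, in comparisons that called 6.49% to 8.73% of genes.

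Because CPM does not compare levels between genes, the pair was also set on a per-length scale, CPM per kilobase of annotated exon (2.937 kb for Ppp1r15a and 5.594 kb for Ppp1r15b in GENCODE). On that scale Ppp1r15a made up 28.7% ± 2.80 (SD, n = 3) of the summed transcripts of the pair in WT DMSO, with every library at or below 31.9%. In PERK -/- DMSO it made up 50.1% ± 0.732 (SD, n = 3). Ppp1r15b was thus the more abundant transcript in unstressed WT cells, and the pair stood near equal in unstressed PERK -/- cells on this scale. With the length of transcript 201 alone (2333 bases for Ppp1r15a), the share of Ppp1r15a was 33.6% in WT DMSO and 55.8% in PERK -/- DMSO.

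Every treatment shifted the pair towards Ppp1r15a in both genotypes. In WT cells the share was 87.5% with Tg, 72.8% with BtdCPU (79.5% without replicate 2), 73.8% with halofuginone, 84.1% with BtdCPU and Tg and 80.5% with halofuginone and Tg. PERK -/- cells had 62.1% with Tg, 78.7% with BtdCPU, 86.7% with halofuginone, 93.7% with BtdCPU and Tg and 89.3% with halofuginone and Tg. The 2 genotypes thus had their highest share under different treatments, WT with Tg and PERK -/- with BtdCPU and Tg.

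The log2 ratio of Ppp1r15a to Ppp1r15b counts within a library, which needs no scaling, rose over DMSO by 2.42 with Tg, 2.35 with BtdCPU (2.58 without WT BtdCPU replicate 2), 2.76 with halofuginone, 3.81 with BtdCPU and Tg and 3.21 with halofuginone and Tg, as means of both genotypes. Each had p = 0.005 in a two-sided exact permutation test within genotype, which is the smallest that the 400 arrangements allow, and 0.005 after Benjamini-Hochberg adjustment over the 5 treatments. Libraries with and without treatment did not overlap in either genotype. With Tg the rise was 4.13 in WT cells and 0.71 in PERK -/- cells. The ratio with Tg was lower in PERK -/- cells by a log2 difference of -2.11, at the smallest two-sided exact permutation p of 0.1 that 3 against 3 libraries can give.

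**Figure D4:**
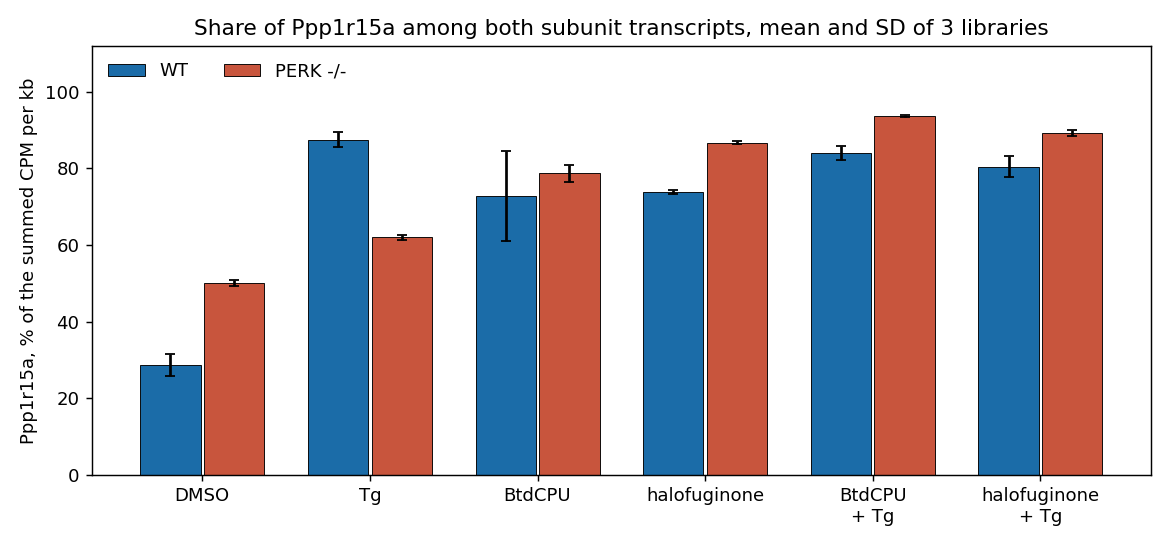
Share of Ppp1r15a in the summed CPM per kilobase of Ppp1r15a and Ppp1r15b, bars for the mean and error bars for the SD of 3 libraries, by treatment and genotype. With DMSO the bars stand at 28.7% in WT and 50.1% in PERK -/- cells, and the PERK -/- mean exceeds the WT mean in every group but Tg alone; without WT BtdCPU replicate 2 the BtdCPU order turns, at 79.5% in WT against 78.7% in PERK -/- cells.

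The stress transcription factors that act on this pathway were read from a fixed list of 9 genes, all of which were tested. In WT cells with Tg all 9 rose (median log2 fold change 1.65, against 0.02 over all tested genes), and in PERK -/- cells with Tg 5 of 9 rose (median 0.48 against 0.05), where 24.9% and 15.2% of all tested genes rose. Atf4, the factor whose translation eIF2 alpha phosphorylation favours, rose by 1.97 in WT and 0.31 in PERK -/- cells on the log2 scale. Ddit3, which encodes CHOP, rose by 4.66 and 1.20. Atf3, an ATF4 target that can bind the cAMP response element, had log2 fold changes of 6.17 in WT and 0.78 in PERK -/- cells. Xbp1, the factor of the IRE1 branch, rose by 1.65 and 1.32, while Atf6, an ER-stress factor activated by proteolysis, rose by 2.24 in WT cells and was at -0.23 without a call in PERK -/- cells.

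When BtdCPU was added to Tg in WT cells, 0 of the 9 factors were called by edgeR and 0 by DESeq2, with 1 lower at an unadjusted p under 0.05. That comparison called 2.32% of all tested genes, or 12.9% with a replicate block, a setting in which the 9 factors were not read. In PERK -/- cells 7 of 9 rose with the same addition, where 17.3% of all tested genes rose and 18.3% fell. In PERK -/- cells with BtdCPU and Tg, Ddit3 stood at 374, 413 and 400 CPM, against 47.4, 60.3 and 35.8 CPM with Tg alone, without overlap. Ddit3 overlaps another tested gene in the annotation, so its counts can include reads of that gene. Halofuginone raised all 9 factors in each genotype (median 1.68 in WT and 1.19 in PERK -/- cells, against 0.00 over all tested genes in both), where 34.7% and 21.2% of all tested genes rose. BtdCPU raised 7 of 9 in WT and 6 of 9 in PERK -/- cells, where 12.9% and 2.55% of all tested genes rose. Without WT BtdCPU replicate 2 the counts that rose were 7 in WT and 7 in PERK -/- cells with BtdCPU, and 6 in PERK -/- cells with Tg. Atf4 differed between the compounds in the direction opposite to Ppp1r15a: halofuginone gave a lower level than BtdCPU, by -0.32 in WT (SE 0.11, log2, edgeR adjusted p = 0.00956) and -0.34 in PERK -/- cells (SE 0.11, log2, edgeR adjusted p = 0.0132).

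**Figure D5:**
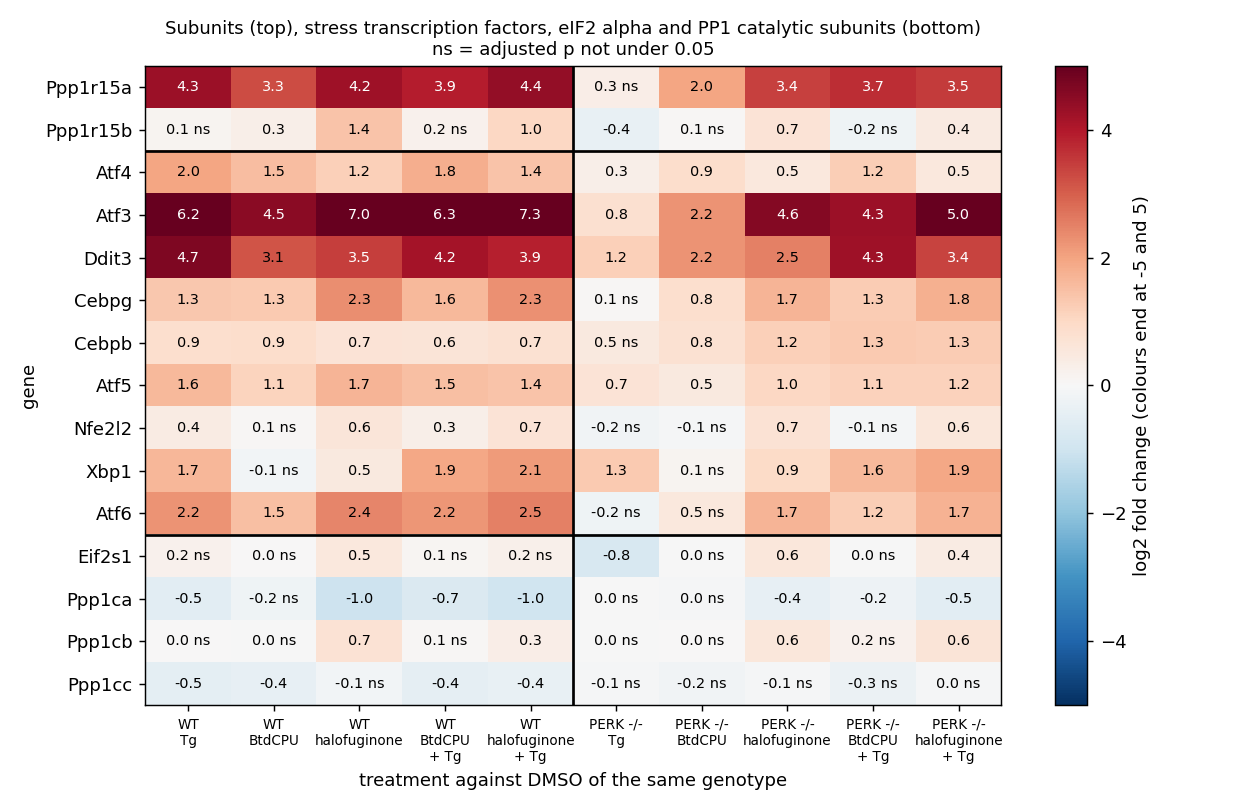
Log2 fold change against DMSO of the same genotype for Ppp1r15a and Ppp1r15b (top), the 9 stress transcription factors (middle) and eIF2 alpha with the PP1 catalytic subunits (bottom), with ns where the edgeR adjusted p was not under 0.05 and colours ending at -5 and 5. The PERK -/- Tg column is pale for Ppp1r15a (0.34), Atf4 (0.31) and Cebpg (0.07), and the same rows are darker in the PERK -/- column for BtdCPU with Tg (3.69, 1.24 and 1.28).

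The partners of GADD34 and CReP were read in the same libraries. The substrate eIF2 alpha is encoded by Eif2s1, and the catalytic subunits of PP1 by Ppp1ca, Ppp1cb and Ppp1cc. Eif2s1 had 166, 173 and 138 CPM in PERK -/- DMSO and 98.8, 98.9 and 78.2 CPM with Tg, below all DMSO libraries, and fell by 0.79 on the log2 scale. In WT cells its change with Tg was 0.22 and not called. Halofuginone raised Eif2s1 by 0.53 in WT and 0.56 in PERK -/- cells. Ppp1ca fell with halofuginone in both genotypes, from 848, 846 and 761 CPM to 427, 414 and 347 CPM in WT cells (log2 fold change -1.05) and by a smaller amount in PERK -/- cells (-0.42). Ppp1cb rose with halofuginone by 0.72 and 0.58. With BtdCPU, 0 of these 4 genes were called in PERK -/- cells by edgeR, 0 by DESeq2 and 0 at an unadjusted p under 0.05, and Ppp1cc was the 1 called in WT cells (-0.40). Of all tested genes, BtdCPU called 3.59% in PERK -/- and 22.2% in WT cells. DESeq2 called 2 as lower in WT cells. Without WT BtdCPU replicate 2, edgeR also called 2 as lower, Ppp1cc (-0.51) and Ppp1ca (-0.31).

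The kinases that phosphorylate eIF2 alpha are Eif2ak1 (HRI), Eif2ak2 (PKR), Eif2ak3 (PERK) and Eif2ak4 (GCN2). Eif2ak3 rose with Tg in WT (1.49, log2) and, from its lower level, in PERK -/- cells (1.46), so transcripts counted to the gene remained in the PERK -/- libraries and responded to Tg. Eif2ak4 fell by 0.57 on the log2 scale (-0.57) with Tg in WT cells and was not called in PERK -/- cells (-0.18). Eif2ak1 was called in 1 of the 10 comparisons with DMSO, at -0.39 with halofuginone in WT cells. The 10 comparisons called between 3.59% and 68.2% of all tested genes, the highest share being this one. Eif2ak2 was called as lower in WT cells with BtdCPU, halofuginone and both combinations, and in PERK -/- cells with BtdCPU and Tg. Eif2ak3 was called as lower with BtdCPU in WT cells, at 16.4, 27.1 and 17.2 CPM against 30.3, 32.4 and 30.7 CPM with DMSO.

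Of 36 other genes for PP1 regulatory subunits, 26 passed the filter on low counts. In WT cells with Tg 7 rose and 9 fell (median -0.08), and with halofuginone 14 rose and 9 fell (median 0.25). Of all tested genes, 24.9% rose and 22.7% fell with Tg, and 34.7% rose and 33.4% fell with halofuginone. BtdCPU in WT cells gave 2 rises and 3 falls, where 12.9% of all tested genes rose and 9.31% fell. Without WT BtdCPU replicate 2 it gave 2 rises and 6 falls. In PERK -/- cells with Tg 2 rose and 2 fell, with BtdCPU 1 rose and 0 fell (0 by DESeq2, 2 at an unadjusted p under 0.05), and with halofuginone 6 rose and 6 fell. Of all tested genes, 15.2%, 2.55% and 21.2% rose and 12.7%, 1.04% and 21% fell in these comparisons. In WT cells the largest rises by fitted fold with Tg or halofuginone were those of Ppp1r42 and Ppp1r32, which had 0 counts in every WT DMSO library and at most 0.567 CPM in those groups, so no fold is given. Ppp1r14c, an inhibitor of PP1, fell in WT cells with Tg, from 6.54, 7.87 and 5.66 CPM to 2.54, 2.59 and 1.64 CPM (log2 fold change -1.57), and had 0 counts in all PERK -/- libraries. Ppp1r12c, a myosin phosphatase targeting subunit, was the single member that rose with BtdCPU in PERK -/- cells (0.37, log2). When BtdCPU was added to Tg in PERK -/- cells, 4 rose and 7 fell, where 17.3% of all tested genes rose and 18.3% fell. When BtdCPU was added to Tg in WT cells, where 2.32% of all tested genes were called, 0 were called by edgeR and 1 rose by DESeq2. At an unadjusted p under 0.05 there were 3 higher and 1 lower in WT cells. With a replicate block that WT comparison called 12.9% of all tested genes, and these subunits were not read in that setting.

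A list of 7 other transcripts known for upstream open reading frames was read beside the pair. In WT cells 6 rose and 1 fell with each of the 5 treatments. Of all tested genes, 28% rose and 24.5% fell in WT cells with BtdCPU and Tg, and 34.3% rose and 31.4% fell with halofuginone and Tg, beside the shares given above for the single agents. In PERK -/- cells 4 rose and 1 fell with Tg, and 4 rose and 0 fell with BtdCPU by edgeR (0 by DESeq2, 1 at an unadjusted p under 0.05). With halofuginone, alone or with Tg, 6 rose and 1 fell in PERK -/- cells, and with BtdCPU and Tg 5 rose and 1 fell. The shares of all tested genes that rose and fell in PERK -/- cells were 22.9% and 22.2% with halofuginone and Tg, and 16.8% and 14.6% with BtdCPU and Tg. The transcript that fell in all 5 WT comparisons was Slc35a4, by a log2 fold change of -0.38 with Tg and -1.13 with halofuginone. In PERK -/- cells with Tg it was Ifrd1 that fell, by -0.51, where WT cells had a rise of 1.33. Atf4, Atf5 and Ddit3 stand on this list and on the list of transcription factors, so the lists are not independent.

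Over the 36 libraries, the log2 CPM of Ppp1r15a and Ppp1r15b correlated with Pearson r = 0.45 and Spearman rho = 0.34. These and the following values are descriptions, since libraries of a group share their treatment and all genes share library depth. Among the 10226 tested genes whose log2 CPM averaged 2 or more, those most like Ppp1r15a by Pearson r were Yars (r = 0.977) and Aars (0.970), the tyrosyl- and alanyl-tRNA synthetases, then Tbc1d31 (0.968), Otub2 (0.965) and Rab39b (0.963). The order depended on the measure: by Spearman rho Tbc1d31 ranked 3, Otub2 18, Aars 21, Rab39b 26 and Yars 53. Of the stress transcription factors, Atf3 (0.96), Ddit3 (0.94), Cebpg (0.91), Atf6 (0.86) and Cebpb (0.80) had a higher r with Ppp1r15a than Atf4 did (0.79). Lower values belonged to Xbp1 (0.56), Atf5 (0.52) and Nfe2l2 (0.33). By Spearman rho the order began with Ddit3 (0.82), Cebpg (0.76) and Atf3 (0.75), and Atf4 had 0.57. Those most like Ppp1r15b by Pearson r were Stx6 (0.969), a SNARE protein of vesicle fusion, Usp47 (0.966), a deubiquitinase, Vgf (0.962), Cdk17 (0.961) and Coq10b (0.960). By Spearman rho these ranked 5, 34, 24, 20 and 50. No gene stood on both lists of 5.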

How the data were processed

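The authors deposited 1 table of estimated counts per gene for the 36 libraries, and per the submitters' processing notes DESeq and GRCm39 were used, with no role or version. The aligner, counter, annotation and use of strand are not given in the sources used here. A deposited value of 0.025 stood where a count of 0 would be and made up 50.6% of values, and 2.69% of the other estimated counts were not whole. Per the labels' protocols, strand-specific libraries were made, with both ribosomal RNA depletion and mRNA selection named.

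Of the deposited entries, 27 that carried a date in place of a symbol were left out (0.206% to 0.278% of a library), 39 symbols on several entries were summed, and values were rounded to whole numbers. Genes were kept by filterByExpr by group (minimum count 10), which left 16065. Libraries were scaled by TMM and fitted with edgeR 4.0.16 (robust quasi-likelihood, 12 group means, all 36 libraries, 24 residual degrees of freedom) in R 4.3.3. P-values of 39 contrasts were adjusted by Benjamini-Hochberg within a contrast, with a threshold of 0.05. The SE is the log2 fold change divided by the square root of F. The scripts were tested on simulated data. No pair of libraries in a group agreed within sampling noise (chi-square per degree of freedom of at least 9.06). Counting error only is covered by floors, since reads carry no molecular identifiers.

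Named genes are Ppp1r15a and Ppp1r15b, any tested member of the eIF2 alpha, PP1, kinase and transcription factor lists, the 2 largest called rises and falls per contrast of the other lists, and the 5 genes most correlated with each member (log2 CPM, prior count 2). Members and lists were chosen with earlier results of these data known. Same-numbered replicates deviated together, with every correlation over 0.1, in 4 contrasts of WT groups: BtdCPU with Tg against Tg (0.16, 0.31 and 0.34), halofuginone with Tg against Tg, against halofuginone, and against BtdCPU with Tg. Some other contrasts met this rule only in part, such as WT BtdCPU against DMSO (0.07, 0.25 and 0.29), so pairing there was not settled. Alternatives were DESeq2 size factors, library size alone, no filter, DESeq2 1.42.0, the compared groups alone, a replicate block, and leaving out each library. Sequences are from RefSeq and gene positions from GENCODE.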

Additional observations from a re-analysis of the deposited data

Results flagged for a closer look

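The responses of PERK -/- and WT cells differed past the test in 5 of the 7 differences of responses tested for Ppp1r15a and in 4 of the 7 tested for Ppp1r15b. For Ppp1r15a the response of PERK -/- minus that of WT cells was -3.93 with Tg, -0.85 with halofuginone and -0.91 with halofuginone and Tg, each on the log2 scale against DMSO. For a compound added to Tg, the same difference for Ppp1r15a was 3.69 with BtdCPU and 3.01 with halofuginone. For Ppp1r15b it was -0.52 with Tg, -0.74 with halofuginone, -0.41 with BtdCPU and Tg and -0.61 with halofuginone and Tg against DMSO. The 5 differences against DMSO share the DMSO libraries, and the 2 over Tg share the Tg libraries, so the values are not independent of each other. These 7 comparisons called between 0.199% and 38.1% of all tested genes. With 1 of 12 libraries left out, the Ppp1r15a call was lost in 8 cases with halofuginone and in 3 with halofuginone and Tg. The Ppp1r15b call with BtdCPU and Tg was lost in 8. The uncalled Ppp1r15a difference with BtdCPU (-1.31) was called by DESeq2, with a replicate block, without the low-count filter and without WT BtdCPU replicate 2.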

How the results depend on the processing

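Of 468 values of the 2 genes under alternatives that kept all libraries, 443 kept their direction and their side of the threshold, 7 lost a call, 17 gained a call and 1 changed sign uncalled. With 1 library left out these, of 600, were 563, 30, 3 and 4. The cause was not tested. With library size alone, Ppp1r15b lost its call for BtdCPU in WT (0.22), gained calls for BtdCPU with Tg in WT (0.24) and PERK -/- (-0.23), and changed sign for Tg added to BtdCPU in WT (0.025). With no filter it lost calls for BtdCPU in WT (0.29), Tg added to BtdCPU in PERK -/- cells (-0.28) and the difference of responses to BtdCPU with Tg (-0.35). Ppp1r15a gained calls for halofuginone against BtdCPU under Tg in WT (0.46), PERK -/- against WT in BtdCPU (-0.39) and the difference of responses to BtdCPU (-1.30). DESeq2 gained calls for Ppp1r15b with BtdCPU and Tg (-0.22) and Tg added to halofuginone (-0.27) in PERK -/- cells, and for that difference (-1.30). The compared groups alone lost, in WT, the calls for Ppp1r15b with BtdCPU (0.29), Ppp1r15a for Tg added to BtdCPU (0.68) and Ppp1r15b for Tg added to halofuginone (-0.38). Calls were gained for Ppp1r15a with Tg (0.30), Ppp1r15b with BtdCPU and Tg (-0.21) and Ppp1r15b for BtdCPU added to Tg (0.20), all in PERK -/- cells, and Ppp1r15a for halofuginone against BtdCPU under Tg in WT (0.47). Without WT BtdCPU replicate 2 in the shared spread, chosen after seeing the data, calls were gained for Ppp1r15a with Tg in PERK -/- cells (0.34) and for halofuginone against BtdCPU under Tg in WT (0.48).

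The block gained Ppp1r15b calls with BtdCPU and Tg in WT (0.20) and PERK -/- (-0.20). In PERK -/- it gained calls for BtdCPU added to Tg (0.17) and Tg added to halofuginone (-0.25). For Ppp1r15a it gained the difference of responses to BtdCPU (-1.26). Not all correlations passed 0.1 in these. Where all did, neither gene changed a call. For the Ppp1r15a to Ppp1r15b ratio, an exact sign-flip over 6 same-numbered pairs gave p = 0.0312 for each treatment, the smallest possible.

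Leave-one-out ranges follow where a call or sign changed. Ppp1r15a had 0.29 to 0.98 for Tg added to BtdCPU in WT, -0.73 to -0.033 for PERK -/- against WT in BtdCPU, -0.062 to 0.14 in halofuginone with Tg, and for the difference of responses -1.67 to -0.98 with BtdCPU, -0.96 to -0.73 with halofuginone and -1.03 to -0.81 with halofuginone and Tg. Ppp1r15b had 0.23 to 0.36 for BtdCPU and 0.028 to 0.25 for Tg in WT, -0.054 to 0.17 for BtdCPU added to Tg in WT and -0.30 to -0.25 for Tg added to BtdCPU in PERK -/- cells. Its difference of responses was -0.44 to -0.33 for BtdCPU with Tg, -0.21 to 0.017 for halofuginone added to Tg and -0.0072 to 0.22 for BtdCPU added to Tg.

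Counts of called genes moved by over 1.5 times. BtdCPU in WT went from 3571 to 5534 (block), 835 (compared groups) and 1780 to 2370 without BtdCPU replicate 1 or 3 or DMSO replicate 2. BtdCPU in PERK -/- went from 577 to 1577 (block), 881 (DESeq2), 1265 (compared groups) and 326 to 353 without DMSO replicate 1 or 2 or BtdCPU replicate 1 or 3. BtdCPU added to Tg in WT went from 372 to 813 (no filter), 899 (DESeq2), 2079 (block), 23 (compared groups) and 41 to 169 without Tg replicate 1 or 3 or BtdCPU with Tg replicate 3. Tg added to halofuginone in WT went from 2242 to 3929 (block), 770 (compared groups) and 1374 without halofuginone with Tg replicate 2, and in PERK -/- from 1033 to 1966 (block). Tg added to BtdCPU in PERK -/- went from 2701 to 4318 (block) and 4277 (compared groups). The difference of responses to BtdCPU went from 32 to 314 (no filter), 587 (block), 161 (DESeq2), 2 (compared groups), 845 without WT BtdCPU replicate 2, and 14 to 21 without WT BtdCPU replicate 1 or 3, WT DMSO replicate 1 or PERK -/- BtdCPU replicate 2. Departures from additivity went from 1402 to 3140 (block), 547 (compared groups), 2668 without BtdCPU replicate 2 and 818 to 903 without BtdCPU replicate 1 or 3 for WT BtdCPU. They went from 1187 to 2757, 2840 and, without Tg replicate 3, 760 for PERK -/- BtdCPU, and from 1043 to 2317, 1740 and 616 for PERK -/- halofuginone.

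Library size alone shifted the median log2 value of all genes by up to -0.11 and 0.16. It moved the share of higher calls from 58.1% to 45.1% (BtdCPU), 55.9% to 80.7% (BtdCPU added to Tg), 51.7% to 65.4% (Tg added to BtdCPU), 58.3% to 76.2% (Tg added to halofuginone) and 51.1% to 41.0% (halofuginone against BtdCPU under Tg), all in WT. The share went from 48.9% to 59.8% for PERK -/- against WT in BtdCPU, 51.6% to 41.4% for the difference of BtdCPU added to Tg, and 40.4% to 64.7% and 47.8% to 58.2% for additivity of BtdCPU and halofuginone in WT.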
